A study of Mus musculus with 2 samples.

Results

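The data set out here are the transcript levels of 10 chemokine genes of the lung epithelium, taken around Cxcl15 (lungkine). The genes were chosen by name and are Cxcl1, Cxcl2, Cxcl5, Cxcl10, Cxcl12, Cxcl15, Cxcl16, Cxcl17, Ccl20 and Cx3cl1. All 10 had a row among the 24369 gene rows of the table. RNA came from sorted type II pneumocytes (alveolar type 2 cells, the lung cells that make surfactant) of wild-type C57BL6 mice, 1 library at postnatal day 28 (P28) and 1 at postnatal day 7 (P7). Both libraries were untreated and of the same genotype and strain. The sources used here give neither the sort markers nor the number or sex of the animals.

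Chemokines are small secreted or membrane-bound proteins that direct leukocyte movement through G protein-coupled receptors. Cxcl1, Cxcl2 and Cxcl5 are inducible ligands that draw neutrophils through CXCR2. Cxcl15 is a mouse CXC chemokine made by lung epithelium and secreted into the airspace, where it takes part in neutrophil recruitment. Cxcl10 is induced by interferon and Ccl20 by inflammatory cytokines, whereas Cxcl12, Cxcl16, Cxcl17 and Cx3cl1 are often expressed without stimulation.

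Levels are given in RPKM (read number divided by gene length and by library depth), so levels of different genes can be compared per length. The spacing of the lowest values put about 24600000 reads behind the P28 values and 17600000 behind the P7 values. With 1 library per age there is no replicate check and no p-value, and each ratio below is RPKM at P28 over RPKM at P7 with its exact 95% interval, which covers counting error only. All 10 type 2 cell markers examined, such as Sftpc and Lamp3, lay between 47.5 and 24085 RPKM at P28 and between 60.1 and 13343 RPKM at P7. Xist had 0.245 RPKM at P28 and 52.7 at P7, while the Y-linked gene Ddx3y had 4.01 RPKM at P28 and was listed at 0 at P7, so sex and age cannot be told apart. The 10 most abundant genes held 44.0% of the total RPKM at P28 and 27.9% at P7. With both totals set equal the median log2 ratio of all genes was -0.37, against -0.08 as deposited, a shift of -0.29.

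Cxcl15 dominated the chemokine transcripts of both libraries. It had 1820 RPKM at P28 and 1012 RPKM at P7, and ranked 6 among all gene rows in each library. Its share of the summed RPKM of the 10 genes was 98.6% at P28 and 98.5% at P7. The other 9 genes together had 26.8 RPKM at P28 and 15.7 RPKM at P7. Next in order at P28 was Cxcl17, which Cxcl15 exceeded 122-fold, and next at P7 was Cxcl16, which it exceeded 137-fold.

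**Figure D1:**
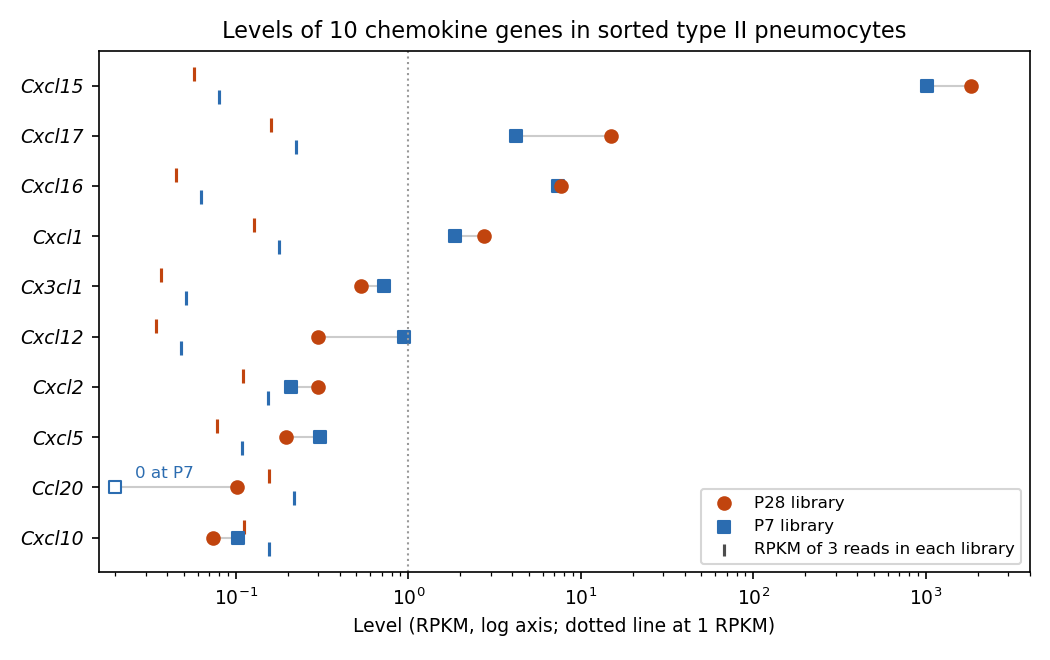
RPKM of each of the 10 chemokine genes (log axis) in the P28 library (circles) and the P7 library (squares), with short ticks at the RPKM that 3 reads give in each library and an open square where the value is 0. Cxcl15 stands at 1820 and 1012 RPKM, 3 other genes pass 1 RPKM, and Cxcl10 and Ccl20 lie below their ticks.

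The remaining genes formed a low tier and a near-zero tier. At P28 the order below Cxcl15 was Cxcl17 (14.9 RPKM), Cxcl16 (7.64), Cxcl1 (2.74), Cx3cl1 (0.530), Cxcl12 (0.301), Cxcl2 (0.3004), Cxcl5 (0.196), Ccl20 (0.101) and Cxcl10 (0.0739). At P7 it was Cxcl16 (7.40 RPKM), Cxcl17 (4.18), Cxcl1 (1.85), Cxcl12 (0.944), Cx3cl1 (0.723), Cxcl5 (0.309), Cxcl2 (0.210), Cxcl10 (0.103) and Ccl20 (0). Cxcl16 and Cxcl17 therefore changed places between the libraries, with Cxcl17 at 1.95 times Cxcl16 at P28 and 0.566 times at P7. Places among the lowest 4 genes rest on few reads. These were 8 at P28 and 4 at P7 for Cxcl2, 8 and 9 for Cxcl5, 2 and 2 for Cxcl10, and 2 and 0 for Ccl20, so their order was not resolved at this depth.

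Of the 10 genes, 4 reached 1 RPKM in at least 1 library, namely Cxcl1, Cxcl15, Cxcl16 and Cxcl17. On the scale of log2(RPKM + 1), 1 of these 4, Cxcl17, was at least 2-fold higher at P28 and 0 were at least 2-fold lower. Among all 9653 genes that reached 1 RPKM, 1.18% were at least 2-fold higher and 1.96% at least 2-fold lower. The counting interval lay wholly above 1 for 2 of the 4, Cxcl15 and Cxcl17, and wholly below 1 for 0 of them. Across the 9238 such genes with a transcript length, intervals lay wholly above 1 for 18.2% and wholly below 1 for 33.3%. A gene that passes through its higher library alone is more likely to be called, but all 4 genes passed in both libraries.

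**Figure D2:**
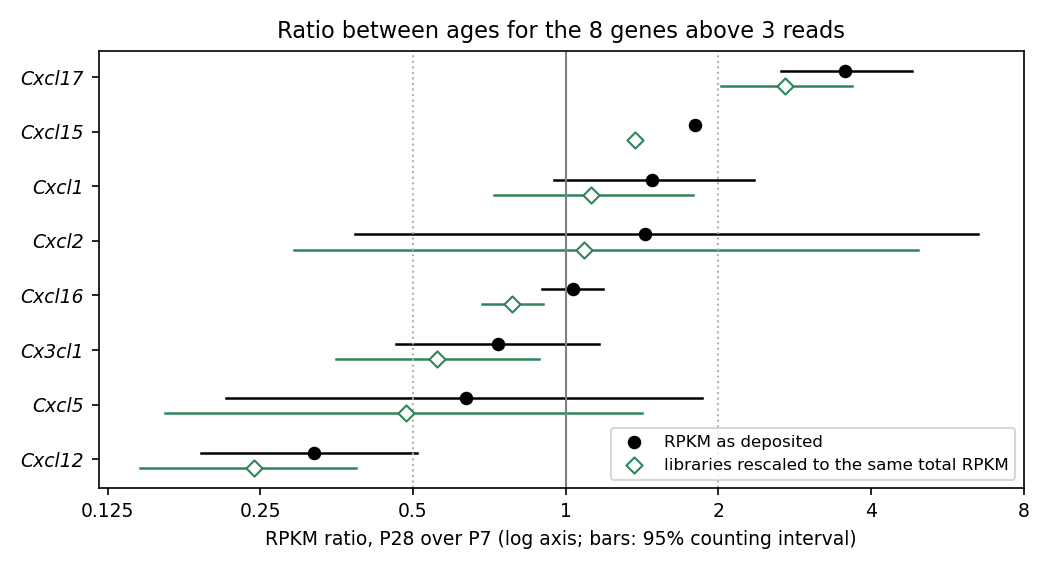
RPKM ratio of P28 over P7 (log axis) for the 8 chemokine genes with more than 3 reads in at least 1 library, as deposited (filled circles) and after both libraries were set to the same total (open diamonds), with 95% counting intervals. Cxcl17 and Cxcl15 lie above 1 and Cxcl12 below 1 on both scales, and the intervals of Cxcl16 and Cx3cl1 leave 1 only after rescaling.

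Cxcl15 (ENSMUSG00000029375.6, protein coding, GRCm38 chromosome 5, 90794534 to 90803067, plus strand) had 1820 RPKM at P28 against 1012 RPKM at P7. About 95218 reads at P28 and 37917 at P7 lie behind these values. The ratio was 1.80 (1.78 to 1.82), a log2 ratio of 0.85, short of 2-fold. With equal totals it was 1.37 (1.35 to 1.38), still above 1, so that the scaling moved the ratio by more than its counting interval.

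Set against Sftpc, the surfactant protein C gene, Cxcl15 had nearly the same proportion in both libraries, while its proportion to other type 2 cell genes differed. It equalled 7.56% of the RPKM of Sftpc at P28 and 7.59% at P7. Relative to the summed RPKM of the 10 type 2 cell markers, of which Sftpc made up 82.1% at P28 and 79.7% at P7, it stood at 6.20% at P28 and 6.05% at P7. The ratio of Cxcl15 to Sftpa1 was 0.958 at P28 and 1.25 at P7, to Sftpb 1.37 and 1.10, and to Slc34a2 1.63 and 1.03. Over the 10 markers this ratio was larger at P28 for 7 and smaller for 3, Sftpa1, Sftpc and Sftpd. Its share of the total RPKM was 1.27% at P28 and 0.931% at P7. Of the 10 type 2 markers, 8 had a larger RPKM at P28 as deposited. The median log2 ratio of the 10 was 0.36 as deposited and -0.04 with equal totals, against -0.08 and -0.37 for all genes. In bulk RNA, fewer cells of a type and less RNA per cell cannot be told apart. Markers of airway club cells summed to 20203 RPKM at P28 and 7924 at P7, against 29337 and 16732 for the type 2 markers. Most of the club cell sum came from 1 gene, Scgb1a1, with 18104 RPKM at P28 and 6764 at P7. The part of club cell RNA in the Cxcl15 level and ratio was not tested.

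The genes closest to Cxcl15 in level over the 2 libraries, by Euclidean distance between pairs of log2(RPKM + 1) values, were Malat1 (distance 0.10), Sftpa1 (0.33), Sftpb (0.48), Slc34a2 (0.71) and Cbr2 (0.85). Malat1, a nuclear noncoding RNA, had 1711 RPKM at P28 and 1052 at P7. Sftpa1, surfactant protein A, had 1900 and 809 RPKM at P28 and P7. Sftpb, surfactant protein B, had 1326 RPKM at P28 and 917 at P7, and Slc34a2, the phosphate transporter of type 2 cells, 1115 and 978. Cbr2, a carbonyl reductase gene counted here among the club cell markers, had 1170 RPKM at P28 and 688 at P7.

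**Figure D3:**
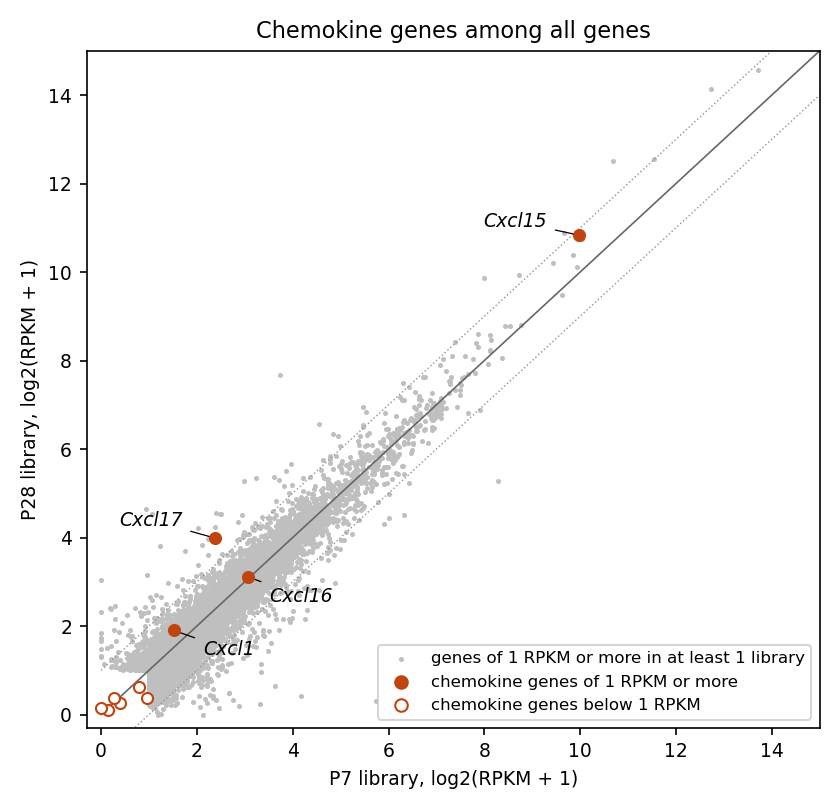
log2(RPKM + 1) in the P28 library (vertical) against the P7 library (horizontal) for the 9653 genes that reached 1 RPKM (grey) and for the 10 chemokine genes (filled from 1 RPKM up, open below). The solid line marks equal values and the dotted lines 2-fold, and of the labelled genes only Cxcl17 lies beyond a dotted line.

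Cxcl15 lies within a cluster of CXC chemokine genes, and its level was not shared by its neighbours. The cluster runs over 147 kb from Cxcl5 to Cxcl2 and holds 7 measured genes, all on the plus strand, in the order Cxcl5, Ppbp, Pf4, Cxcl3, Cxcl15, Cxcl1 and Cxcl2. Cxcl3, whose gene ends 4933 bases before Cxcl15 begins, had 0.160 RPKM at P28 and 0.223 at P7. On the other side Cxcl1, 88173 bases beyond the end of Cxcl15, had 2.74 and 1.85 RPKM at P28 and P7. Pf4, platelet factor 4, had 1.94 RPKM at P28 and 2.12 at P7, and Ppbp, the platelet basic protein gene, 0.301 and 0.105. By RPKM the highest neighbour was Cxcl1 at P28 and Pf4 at P7. At P28 and P7 these values rest on 64 and 31 reads for Cxcl1 and about 28 and 22 for Pf4, so their order was not resolved. Cxcl10 lies on the same chromosome but 1.55 megabases away, and the other 5 genes are on chromosomes 6 (Cxcl12), 11 (Cxcl16), 7 (Cxcl17), 1 (Ccl20) and 8 (Cx3cl1).

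**Figure D4:**
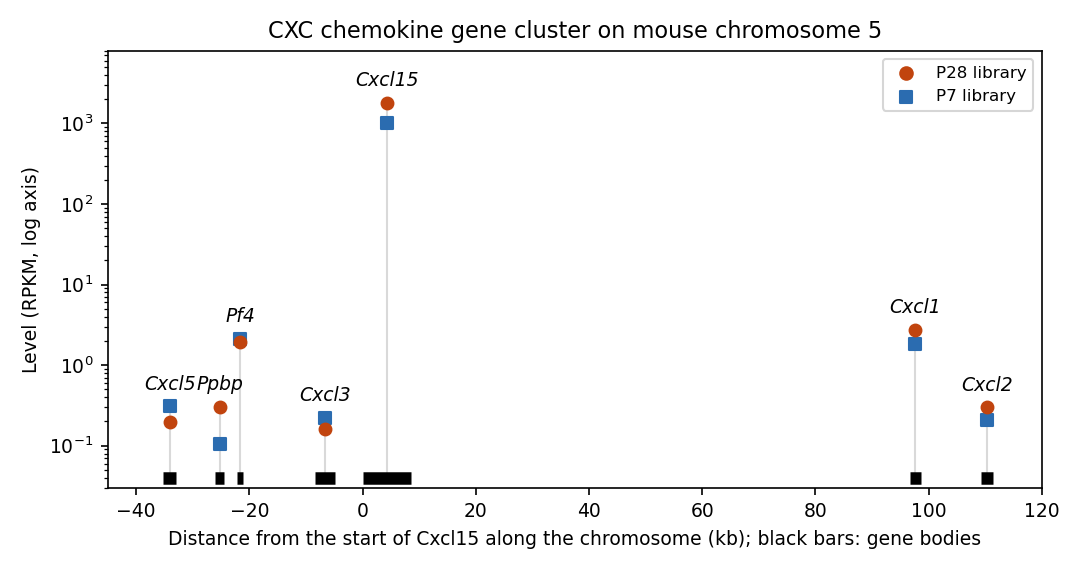
RPKM (log axis) of the 7 measured genes of the CXC cluster on chromosome 5 at P28 (circles) and P7 (squares) against distance in kilobases from the start of Cxcl15, with gene bodies as black bars. Cxcl15 stands at 1820 and 1012 RPKM and each of its 6 neighbours below 3 RPKM.

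The 120 bases before the RefSeq start of Cxcl15 and of its inducible neighbours Cxcl1 and Cxcl2 are shown because these 3 genes share a cluster and a strand while Cxcl15 stood 664 times above Cxcl1 at P28 and 546 times at P7. They are from RefSeq, build GRCm38.p6, plus strand, 5′ to 3′, at chr5:90794414-90794533 for Cxcl15, chr5:90891125-90891244 for Cxcl1 and chr5:90903779-90903898 for Cxcl2. Capitals mark matches to GGGANNNNCC, the letters of a kappa-B type site, and to TATAAA, those of a TATA box, on either strand, and overlapping matches run together. GENCODE gene models start earlier for Cxcl1 and Cxcl2, so the last 4 and 28 bases of their stretches lie inside those models.
Cxcl15: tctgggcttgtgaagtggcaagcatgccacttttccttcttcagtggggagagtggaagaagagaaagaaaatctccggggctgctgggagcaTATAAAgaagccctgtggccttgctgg
Cxcl1: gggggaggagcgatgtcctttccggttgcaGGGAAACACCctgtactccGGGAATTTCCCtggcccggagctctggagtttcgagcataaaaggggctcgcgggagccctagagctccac
Cxcl2: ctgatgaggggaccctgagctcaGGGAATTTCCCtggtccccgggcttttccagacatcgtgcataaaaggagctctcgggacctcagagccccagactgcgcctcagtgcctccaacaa
Promoter sequences were found for 7 of the 10 genes. In the 250 bases before the start, GGGANNNNCC matched in 4 of them (Cxcl1, Cxcl2, Cxcl10 and Ccl20) and in 17.6% of 32851 promoters in all. TATAAA matched in Cxcl15 and Cx3cl1 and in 12.4% of all promoters. GAAANNGAAA, the letters of an interferon response element, matched only in Cxcl10 of the 7 and in 2.98% of all. CTCAAG, found in binding sites of the lung factor NKX2-1, matched in 0 of the 7 and in 13.3% of all. Such matches describe letters in these windows and are neither sites nor causes.

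Among the ligands that draw neutrophils through CXCR2, Cxcl1 was the most abundant. Its level was 2.74 RPKM at P28 from 64 reads, against 1.85 RPKM at P7 from 31 reads. The ratio of 1.48 had an interval of 0.949 to 2.35, which holds 1. Cxcl1 was 9.13 times as high as Cxcl2 at P28 and 8.84 times at P7. For Cxcl2 the ratio was 1.43 (0.384 to 6.50), and for Cxcl5 it was 0.637 (0.214 to 1.86). Both intervals hold 1 and are wide at this depth. Of the 50-base words in Cxcl2 transcripts 5.84% also occur in Cxcl3, so the counting may have split reads between these near copies, whereas the share was 0% for Cxcl1 and 0.530% for Cxcl15. Relative to Cxcl1, Cxcl15 was 664 times as high at P28 and 546 times at P7.

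Cxcl10, which draws T cells through CXCR3, and Ccl20, the ligand of CCR6, were at or under a floor of 3 reads in both libraries, and no ratio is given for them. For Cxcl10 the floor is 0.112 RPKM at P28 and 0.156 at P7. For Ccl20 it is 0.156 RPKM at P28 and 0.218 at P7, so its 2 reads at P28 and none at P7 do not separate the libraries.

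Cxcl17, a mucosal chemokine of airway and gut epithelium that acts on myeloid cells, had the largest ratio of the 8 genes for which one is given. It stood at 14.9 RPKM at P28 from 278 reads, against 4.18 RPKM at P7 from 56 reads. The ratio was 3.56 (2.66 to 4.83), a log2 ratio of 1.61, and 2.70 (2.02 to 3.67) with equal totals. Its rank among all gene rows was 938 at P28 and 3960 at P7. Markers of airway club cells stood higher in the same library, with a larger RPKM at P28 for 8 of 8. Their sums were 20203 RPKM at P28 and 7924 at P7, mostly from Scgb1a1 (18104 and 6764 RPKM). Of these 8, 6 were at least 2-fold higher (5 with equal totals), among them Scgb1a1, Scgb3a1 and Muc5b, against 1.18% of all genes as deposited. Cxcl17 equalled 0.0736% of the summed club markers at P28 and 0.0528% at P7. The part of club cell RNA in the Cxcl17 difference was not tested. Lipe, which lies 1342 bases from Cxcl17 on the same strand, had 0.795 RPKM at P28 and 0.773 at P7.

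Cxcl16, a membrane-anchored chemokine that can be shed and binds CXCR6, was close to equal as deposited. It had 7.64 RPKM at P28 against 7.40 RPKM at P7, from about 507 and 352 reads. The ratio was 1.03 (0.899 to 1.19), and its direction turned with equal totals, to 0.785 (0.683 to 0.901). Its log2 ratio moved from 0.04 to -0.31, while the median of all genes moved from -0.08 to -0.37. Zmynd15, which overlaps it on the opposite strand, had 0.234 RPKM at P28 and 0.184 at P7.

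Cx3cl1 (fractalkine), the other membrane-anchored chemokine, binds CX3CR1. Its level was 0.530 RPKM at P28 from 41 reads, against 0.723 RPKM at P7 from 40 reads. The ratio of 0.734 (0.463 to 1.16) had an interval that holds 1, while with equal totals it was 0.558 (0.352 to 0.885).

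Cxcl12, the ligand of CXCR4 and a product of stromal and endothelial cells in many tissues, was below 1 RPKM in both libraries. Its 0.301 RPKM at P28 and 0.944 RPKM at P7 rest on about 26 and 59 reads, by the mean of 3 transcript lengths. The plain ratio was 0.319 (0.191 to 0.509), or 3.14-fold lower at P28. Its log2 ratio with 1 RPKM added was only -0.58, since the added value shrinks differences of low genes. With the longest transcript the interval was 0.217 to 0.465 and with the shortest 0.159 to 0.626. Endothelial markers also had lower levels, with a larger RPKM at P7 for 10 of 10 and sums of 12.9 RPKM at P28 and 37.5 at P7. The median log2 ratio of those that reached 1 RPKM was -1.09, against -0.08 for all such genes. Fibroblast markers summed to 13.9 RPKM at P28 and 29.9 at P7, with 8 of 12 larger at P7. The other 4, Pdgfra, Dcn, Lum and Inmt, were larger at P28, with Inmt at 2.31 RPKM at P28 and 0 at P7. Pecam1 and Cdh5, which define endothelial cells, and the collagen genes Col1a1 and Col1a2 were above 0 in both libraries. The part of these cells in the Cxcl12 difference was not tested.

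Few other chemokine ligands reached 1 RPKM, a level that 9653 of all 24369 gene rows reached. Of those 9653, 3.14% were at least 2-fold apart. Of 28 other ligands, 2 reached 1 RPKM, namely Pf4 and Ccl27a, a skin-associated ligand (1.54 RPKM at P28, 1.58 at P7), and both lay within 2-fold. Another 12 of the 28 were at 0 in both libraries, and the highest value among those below 1 RPKM was 0.3996. With all these ligands in the sum, the share of Cxcl15 was 98.3% at P28 and 98.0% at P7.

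Receptors for these ligands were also low. Of 24 chemokine receptor genes, 1 reached 1 RPKM, against 9653 of all 24369 gene rows. It was the scavenger receptor gene Ackr3, whose protein binds CXCL12. Ackr3 had 0.281 RPKM at P28 and 1.76 RPKM at P7, a log2 ratio of -1.11 and a plain ratio of 0.159 (0.0937 to 0.256). It passed through P7 alone, its higher library, which makes a 2-fold call more likely. Among all genes that reached 1 RPKM, 1.96% were at least 2-fold lower. The call of Ackr3 was lost with a pseudocount of 5. Ackr3 was lower in the same library as Cxcl12 and the endothelial markers, and the part of endothelial cells in its difference was not tested. The signalling receptors of the members were below 1 RPKM, with Cxcr2 at 0.570 RPKM at P28 and 0.189 at P7, Cxcr4 at 0.583 and 0.876, Cxcr6 at 0.236 and 0.840, Ccr6 at 0.0782 and 0, and Cx3cr1 at 0 in both. Of 10 macrophage markers, 6 (among them Marco, C1qa and Adgre1) were at 0 in both libraries, and the list summed to 3.29 RPKM at P28 and 3.69 at P7. Another 2 reached 1 RPKM, Csf1r with 1.49 RPKM at P28 and 2.23 at P7, and Cd68 with 1.08 and 0.455. The 7 neutrophil markers measured summed to 0.845 RPKM at P28 and 0.975 at P7.

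Genes that release, cleave or bind chemokines were mostly expressed. Of 18 such genes 12 reached 1 RPKM, with 0 at least 2-fold higher, 1 lower and a median log2 ratio of -0.55. Among all 24369 gene rows 9653 reached 1 RPKM, with 1.18% of those higher, 1.96% lower and a median of -0.08. The 1 lower gene was Mmp14, a membrane-anchored metalloprotease, with 1.93 RPKM at P28 and 7.37 at P7 (log2 ratio -1.52). That call was lost with a pseudocount of 5, and Hs2st1 joined it with one of 0.1. The plain ratios of Hs2st1 and Ext2 were 0.490 (0.465 to 0.515) and 0.497 (0.417 to 0.592). With equal totals 6 of the 12 were lower, with Adam10, Timp3, Ext2, Ndst1 and Hs2st1 added, against 4.59% of all genes, and the medians were -0.88 for the list and -0.37 for all genes. Markers of type 1 cells were lower in the same library, with 9 of 10 larger at P7, sums of 274 RPKM at P28 and 459 at P7 and a median of -0.80. Endothelial and fibroblast markers had medians of -1.09 and -0.80, though 4 of 12 fibroblast markers were larger at P28. The part of these cells in the lower levels was not tested. Adam10, which sheds Cxcl16 and Cx3cl1, had 4.24 RPKM at P28 and 7.72 at P7, while Adam17, the other sheddase of Cx3cl1, had 7.66 and 7.23. Timp3, an ADAM17 inhibitor, had 36.8 RPKM at P28 and 61.5 at P7. Hs2st1 and Ndst1, which sulfate the heparan chains that hold chemokines at cell surfaces, had 16.4 and 12.9 RPKM at P28 and 33.4 and 25.7 at P7. The heparan sulfate proteoglycan genes Sdc4 (118 RPKM at P28, 94.4 at P7) and Sdc1 (35.4 and 38.7) were the most abundant apart from Timp3. Dpp4, a peptidase that trims Cxcl12 and Cxcl10, had 12.2 RPKM at P28 and 14.6 at P7.

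Il1b and Tnf, cytokines that induce Cxcl1, Cxcl2, Cxcl5 and Ccl20, were at 0 at P28 and had 0.0856 and 0.0687 RPKM at P7. The P7 values rest on about 2 reads each, under the floor of 3 reads, and do not separate the libraries. Of 14 cytokine genes 3 reached 1 RPKM, namely Il33, an epithelial alarmin (52.8 RPKM at P28, 47.4 at P7), Csf2, the GM-CSF gene that alveolar macrophages depend on (3.86 and 2.09), and Il34 (2.47 and 1.77), and all 3 lay within 2-fold. By contrast, 16 of 20 genes of cytokine receptors and their adaptors reached 1 RPKM, all within 2-fold, with a median log2 ratio of -0.13. Among all 24369 gene rows 9653 reached 1 RPKM, of which 9350 lay within 2-fold, with a median of -0.08. By the higher of both libraries the most abundant of the 16 were Il6st with 15.9 RPKM at P28 and 12.7 at P7, Ifngr1 with 7.36 and 7.74, and Tnfrsf1a with 4.09 and 6.11. Il17ra, a receptor chain for interleukin 17, had 5.11 RPKM at P28 and 5.66 at P7, Il1r1 had 4.71 and 5.49, and Il13ra1 had 5.11 and 3.81.

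Of 25 NF-kappa-B regulators and targets, the gene group that also includes inducible chemokines, 18 reached 1 RPKM, against 9653 of all 24369 gene rows. At a pseudocount of 1 RPKM only Zfp36 of the 18 was at least 2-fold apart, against 3.14% of all genes. Zfp36 encodes a protein that destabilises cytokine mRNAs. It had 122 RPKM at P28 and 43.5 at P7, a log2 ratio of 1.47. Cebpb, a transcription factor gene, had 1.31 RPKM at P28 and 0.598 at P7, a plain ratio of 2.19 (1.23 to 4.13). It joined Zfp36 with a pseudocount of 0.1, but passed 1 RPKM through its higher library alone. The median of the 18 was 0.27 and turned to -0.06 with equal totals, against -0.08 and -0.37 for all genes. Lcn2, an iron-binding defence protein, had 196 RPKM at P28 and 158 at P7, and Icam1, an adhesion molecule for leukocytes, 27.4 and 39.5. Sod2 had 11.4 RPKM at P28 and 8.92 at P7, Birc3 8.67 and 8.02, and Nfkbiz, which sets secondary NF-kappa-B responses, 7.79 and 7.69. Of 20 interferon gamma targets, the group that includes Cxcl10, 8 reached 1 RPKM and 0 were 2-fold apart. Their median of 0.11 turned to -0.16 with equal totals, again against -0.08 and -0.37 for all genes. In that list Psmb8 had 2.93 RPKM at P28 and 1.58 at P7, Irf9 2.18 and 2.89, Irf1 2.80 and 2.43, Psmb9 2.32 and 1.69, and Stat2 1.85 and 1.72.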

How the data were processed

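Total RNA of sorted cells was reverse transcribed, made into Nextera XT libraries and sequenced as read pairs, per the labels' protocols. TopHat, TopHat2 2.0.9 and the build GRCm38 (mm10) appear in the submitters' processing notes without a role. The authors deposited 1 column of RPKM values for each sample, per the file headers. The sources used here do not give the counting program, annotation, strand setting or filters. No sample column was left out (0 unused).

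Lengths came from transcripts with a RefSeq accession in GENCODE M21 (GRCm38), matched by symbol for 22929 genes. For single-length genes, low RPKM times length was a whole multiple of a common step (tolerance 0.05) for 59.6% of 2314 genes at P28 and 60.8% of 2479 at P7, and a step was taken as 1 read. For 6 members with up to 300 reads the read numbers are the whole-number pair within 7% of the length estimate that gives the RPKM ratio; the rest are rounded. The steps of both libraries were then adjusted to the commonest ratio between low values, 0.716, with their geometric mean kept. That ratio needs no lengths and bears only on the ratio of the steps, not on their size. PCR reads are not independent molecules.

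The log2 ratio is (RPKM + 1) at P28 over (RPKM + 1) at P7, over genes that reached 1 RPKM in either library, called at 2-fold, with no test. Fold changes on this scale understate differences of low genes. The share of all genes with a larger RPKM at either age was not counted, so counts of markers larger at an age have no background beside them. The procedure was tested on simulated data. Alternatives changed the pseudocount, scaling, filter, fold, share denominator and transcript length. Members and lists were chosen with earlier results of these data known. In each list the up to 6 most abundant genes and those past 2-fold are named, and also, after their values were seen, receptors and sheddases of members, Il1b, Tnf, Xist, Ddx3y and marker genes. The value of 1 list member is not reported here. Python 3.11.15, scipy 1.17.1 and pandas 2.3.3 were used.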

Additional observations from a re-analysis of the deposited data

How the results depend on the processing

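The call of Cxcl17 as at least 2-fold higher at P28 held under both other pseudocounts (0.1 and 5 RPKM) and the 4 other scalings. Its log2 ratios there ran from 1.11 to 1.81. No filter and a filter of 5 RPKM leave its ratio unchanged by design, so they do not test the call. Cxcl17 passes the 5 RPKM filter through P28 alone (14.9 RPKM, against 4.18 at P7). Of the members that passed the filter in use, 0 were at least 2-fold lower in any of these settings. Cxcl12, which fails the 1 RPKM filter, had a log2 ratio of -1.38 with a pseudocount of 0.1. That pseudocount was not combined with the removal of the filter. At a 1.5-fold threshold 2 members, Cxcl15 and Cxcl17, were higher. Cxcl15 stayed above 0 and below 2-fold throughout, with log2 ratios of 0.45 with equal totals, 0.88 with equal upper quartiles, 0.82 with equal totals outside the 10 most abundant genes and 0.93 with the median ratio set to 0. All genes at least 2-fold apart numbered 303 as deposited, against 756 with a pseudocount of 0.1, 73 with 5, 508 with equal totals and 166 with a 5 RPKM filter. With equal totals 65 of them were higher and 443 lower, against 114 and 189 as deposited. The cause was not tested. No paired analysis was possible because each age has 1 library. Depth limits Cxcl2, Cxcl5, Cxcl10 and Ccl20, which had at most 9 reads in a library.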
